A study of Mus musculus with 6 samples.

Results

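The keratins of the interfollicular epidermis, the skin between hair follicles, were examined in tail keratinocytes of mice labelled as epidermal Gpr161 knockouts and of controls. The group was a fixed list of 9 genes taken by symbol: the basal keratins Krt5 and Krt14, the suprabasal keratins Krt1, Krt10 and Krt2, and the minor keratins Krt76, Krt77, Krt78 and Krt80. Of these, 8 had a row among the 19618 genes of the deposited table, and all 8 were among the 15422 genes tested. Krt76, a keratin best known from the palate and oral mucosa, had no row and was not analysed here.

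Bulk RNA was sequenced in 6 libraries of tail keratinocytes from mice aged 4 months, whose epidermis was scraped off after trypsin and dispase and strained, with no sort described. The 3 knockout libraries (DE679, DE685 and DE688) had the genotype K14cre+/ Gpr161Flox-Homozygous, in which the keratin 14 promoter drives the Cre recombinase that deletes the floxed gene. The labels of the 3 control libraries (DE680, DE684 and DE689) name no K14cre. One control was Gpr161Flox-Homozygous and the others Gpr161Flox-Heterozygous, and the columns do not show which library is which. All groups carried at least 1 floxed allele, and Cre was named for the knockout alone, so the effects of Cre and of the deletion cannot be told apart. Nothing states that each library came from a separate mouse, so p-values measure the spread between these samples, which may be technical. The protein made from Gpr161 sits in the primary cilium, where it holds back Hedgehog signalling.

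Keratins are the intermediate filament proteins of epithelial cells. Each filament is built from type I and type II chains that pair with one another, so the genes are usually expressed as partners. Basal keratinocytes make the Krt5 and Krt14 pair, and cells that leave the basal layer switch to Krt1 and Krt10, with Krt2 joining in the upper spinous and granular layers. In mouse tail, interfollicular epidermis of this kind alternates with scales, whose cells are known to make hard keratins of the hair type such as Krt36 and Krt84.

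Total estimated counts ran from 17157864 (DE685) to 25344399 (DE689) per library. Gpr161 did not check the labels: it had 25.9 to 33.6 CPM (counts scaled to the library total, CPM, with the trimmed mean of M values, TMM) in the knockout and 30.2 to 32.2 CPM in the control, and its log2 fold change of −0.13 (SE 0.11) had an edgeR adjusted p of 0.553. Knockout and control below therefore mean the libraries with those labels. Y-linked transcripts were found in 1 library of each group, DE685 and DE684, and Xist in the other 4. Summed levels of several marker lists lay higher in the knockout libraries, without overlap. The fibroblast, melanocyte and hair follicle stem cell lists follow here, and the upper follicle list is given further below. The Merkel cell sum was 6.24 to 9.14 against 4.84 to 6.23 CPM, and its nearest libraries, DE685 and DE684, were almost equal (6.238 and 6.230 CPM). Of its 5 markers 2 were tested, Krt8 and Krt20. Both overlapped between the groups and 0 passed the edgeR threshold. The sweat gland duct sum was 23.4 to 47.5 against 11.4 to 17.7 CPM. Nearly all of it was the member Krt77 (22.3 to 45.4 against 9.89 to 15.2 CPM), so it is not a separate result. For the 7 fibroblast markers the sum was 891 to 1011 CPM against 487 to 590.01 CPM, and most of it was Postn (826 ± 57.5 against 492 ± 73.5 CPM, SD, n = 3 each), which is also listed for hair follicle stem cells. Of the 6 fibroblast markers tested 3 were higher and 3 lower (median −0.17): Postn (0.75) and Dcn (1.90) passed the edgeR test, while the collagens Col1a1 (−0.38), Col1a2 (−0.42) and Col3a1 (−0.54) did not. The sum of the 6 melanocyte markers was 79.2 to 117 against 54.0 to 78.9 CPM (6 of 6 higher, 0 past the edgeR threshold, 3 at an unadjusted p under 0.05), and that of the 7 hair follicle stem cell markers, Postn included, 2968 to 3258 against 2151 to 2294 CPM (6 of 7 higher, Nfatc1 and Postn passed). Most of the latter sum was Krt15 (1881 ± 171 against 1443 ± 142 CPM, SD, n = 3 each, edgeR adjusted p 0.104). Krt15 is also listed among the soft keratins below. The lower gene was Cd34 (−0.29, edgeR adjusted p 0.504). The 8 immune cell markers overlapped (66.0 to 156 against 35.6 to 134 CPM), and the 3 endothelial markers were near 0 (1.91 to 2.88 against 2.70 to 5.09). Each fibroblast, melanocyte, hair follicle stem cell, immune cell and endothelial marker was detected in at least 1 library. The part of these cells in the keratin results was not tested. In bulk RNA, fewer cells of a type and less RNA per cell cannot be told apart.

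The 250 bases before the start site are shown for Krt77, the member that passed the test below, and for Krt10, Krt2 and Krt78, which shared their highest and lowest library. They are RefSeq windows on GRCm38.p6, minus strand, at chr15:101869706-101869955 for Krt77, chr11:99389365-99389614 for Krt10, chr15:101818170-101818419 for Krt2 and chr15:101954288-101954537 for Krt78. Capitals mark every match of TATANA on either strand, overlapping matches merged.

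Krt77: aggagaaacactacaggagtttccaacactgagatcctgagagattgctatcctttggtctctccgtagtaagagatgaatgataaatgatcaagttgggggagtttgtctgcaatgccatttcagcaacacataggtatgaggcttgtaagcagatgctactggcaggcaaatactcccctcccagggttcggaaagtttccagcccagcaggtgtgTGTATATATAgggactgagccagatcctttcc

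Krt10: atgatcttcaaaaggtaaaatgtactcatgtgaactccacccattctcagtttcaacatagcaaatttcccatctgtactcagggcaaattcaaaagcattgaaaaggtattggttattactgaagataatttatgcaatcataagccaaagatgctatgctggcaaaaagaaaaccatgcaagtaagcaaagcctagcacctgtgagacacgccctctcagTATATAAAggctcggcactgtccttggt

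Krt2: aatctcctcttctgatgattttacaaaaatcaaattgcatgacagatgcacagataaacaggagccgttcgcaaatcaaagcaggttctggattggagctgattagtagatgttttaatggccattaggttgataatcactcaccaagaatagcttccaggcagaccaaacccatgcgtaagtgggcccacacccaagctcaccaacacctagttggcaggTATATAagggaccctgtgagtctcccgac

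Krt78: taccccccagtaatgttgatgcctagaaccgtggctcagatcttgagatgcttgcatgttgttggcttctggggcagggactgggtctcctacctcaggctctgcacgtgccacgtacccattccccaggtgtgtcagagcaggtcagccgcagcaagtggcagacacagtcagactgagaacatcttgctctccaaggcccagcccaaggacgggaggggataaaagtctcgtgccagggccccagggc

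In Krt77 the matches ran from 32 to 23 bases before the start, in Krt10 from 28 to 21 and in Krt2 from 29 to 24. The Krt78 window held none, nor did that of Krt5. TATANA occurred in 22.6% of the 32851 windows of this length in the table. Windows were listed for 7 members, among them Krt5 and Krt76, and not for Krt1 or Krt80; that of Krt14 lay inside the annotated gene and was not used. On both strands, none of these windows held GACCACCCA, the core of the GLI consensus (0.225% of all windows), the AP-1 motif TGANTCA (6.75%) or the AP-2 motif GCCNNNGGC (13.7%). This says only that these letters are not in these windows.

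Only 1 of the 8 keratins passed an adjusted p of 0.05 between genotypes. This was Krt77, which was higher in the knockout. Over all genes tested 1.60% passed, 1.24% higher and 0.357% lower. By sign, 4 members were higher and 4 lower, with a median log2 fold change of −0.11 against −0.0036 for all genes. Unadjusted p-values under 0.05 belonged to 3 members, Krt2, Krt77 and Krt80, and to 19.0% of all genes. The CPM of the groups did not overlap for 3 members, Krt5, Krt77 and Krt80, each higher in the knockout, against 25.6% of all genes in either direction and 12.8% higher. With 3 libraries against 3, an exact permutation test of a single value cannot go below 0.1, so the single genes rest on the edgeR quasi-likelihood fit over all genes.

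**Figure D1:**
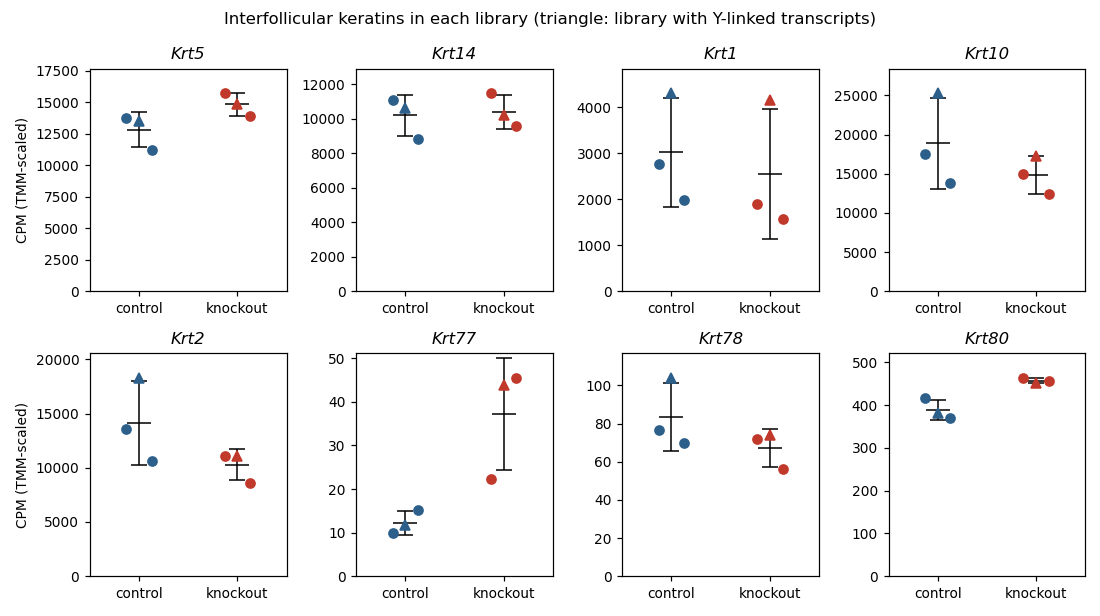
CPM (TMM-scaled, linear axis from 0) of the 8 keratins in each control (blue) and knockout (red) library, with mean and SD; triangles are the libraries with Y-linked transcripts. Krt77 and Krt80 separate the groups, as does Krt5 by a small margin, and Krt1 and Krt10 are highest in the triangle of each group.

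The basal pair was high in every library and neither gene passed the test. Krt5 (chromosome 15, 101707070 to 101712898, minus strand, GRCm38), the type II basal keratin, had 15700.2, 14853 and 13892 CPM in DE679, DE685 and DE688. In DE680, DE684 and DE689 it had 13719, 13482 and 11196 CPM. Every knockout library lay above every control library, but the nearest pair, DE688 and DE680, differed by little. The log2 fold change was 0.21 (SE 0.09, edgeR adjusted p 0.273), with a 95% interval from 0.996- to 1.35-fold, and was 0.13 without DE689. Its partner Krt14 (chromosome 11, 100203162 to 100207548, minus strand), the type I basal keratin and the source of the promoter that drives Cre here, had 11469.9, 10186 and 9552 CPM in the knockout and 11102, 10634 and 8847 CPM in the control. The groups overlapped. The change was 0.029 (SE 0.11, edgeR adjusted p 0.911), with an interval from 0.861- to 1.21-fold, and its sign turned without DE679 (−0.043) or DE689 (−0.061).

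The proportion of the basal partners did not overlap between the groups. The ratio of Krt14 to Krt5 counts within a library was 0.731, 0.686 and 0.688 in DE679, DE685 and DE688 and 0.809, 0.789 and 0.790 in DE680, DE684 and DE689. All 3 knockout libraries lay below all 3 control libraries, by 0.18 on the log2 scale in the mean (−0.51 ± 0.052 against −0.33 ± 0.021, SD, n = 3 each). The exact two-sided permutation p was 0.1, the smallest that 3 against 3 allows, and 0.3 after Benjamini-Hochberg adjustment over the 6 ratios computed. Both genes share sequence with stress and follicle keratins. Of the distinct stretches of 50 bases in their transcripts, 8.52% of those in Krt5 recur in other genes, chiefly Krt6a, and 14.4% of those in Krt14, in Krt16 and Krt17. How the authors' counting divided such reads is not stated, which leaves that part of both counts uncertain.

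The suprabasal keratins were lower in the mean in the knockout, and none passed the test. Krt10 (chromosome 11, 99385254 to 99389364, minus strand), the type I keratin of the spinous layer, had 14949.6, 17304 and 12432 CPM in DE679, DE685 and DE688 and 17491, 25272 and 13855 CPM in DE680, DE684 and DE689. DE684 stood far above the rest, and the lowest control lay below 2 of the 3 knockout libraries. The change was −0.34 (SE 0.21, edgeR adjusted p 0.423), with an interval from 0.559- to 1.11-fold. Without DE684 it was −0.075, without DE685 −0.46, without DE688 −0.23 and without DE689 −0.52.

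Krt1 (chromosome 15, 101845426 to 101850794, minus strand), the type II partner of Krt10, had 1898, 4159 and 1563 CPM in the knockout and 2777, 4303 and 1976 CPM in the control. It varied 2.75-fold over the 6 libraries, more than any other member except Krt77. Within each group the library with Y-linked transcripts, DE685 or DE684, was the highest. The change between genotypes was −0.25 (SE 0.40, edgeR adjusted p 0.777). The interval, from 0.443- to 1.60-fold, covers sizeable changes in either direction. The sign turned without DE684 (0.095) or DE688 (0.0044), and the change was −0.073 without DE679, −0.48 without DE689 and −0.80 without DE685.

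Krt2 (chromosome 15, 101810689 to 101818169, minus strand), the type II keratin of the upper suprabasal layers, had 11122, 11126 and 8633 CPM in the knockout and 13532, 18256 and 10634 CPM in the control. DE689 was the only control library inside the knockout range. Its change of −0.46 (SE 0.19, interval from 0.535- to 0.991-fold) did not pass (edgeR adjusted p 0.255). Among the members with a negative change, it had the smallest unadjusted edgeR p (0.0450). It was −0.23 without DE684, and no other single library moved it by as much.

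Set against the basal pair, the sum of Krt1 and Krt10 counts was 0.620, 0.857 and 0.597 times that of Krt5 and Krt14 in DE679, DE685 and DE688. In DE680, DE684 and DE689 it was 0.817, 1.23 and 0.790 times. DE685 was the knockout library inside the control range. The mean log2 ratio was −0.55 ± 0.29 against −0.11 ± 0.35 (SD, n = 3 each), a difference of −0.44 (exact two-sided permutation p 0.3). It was −0.24 without DE684 and −0.60 without DE685. Krt10 to Krt1 did not differ between groups in the mean (2.68 ± 0.54 against 2.67 ± 0.13 on the log2 scale, exact permutation p 1), but DE685 had 4.16 counts of Krt10 per count of Krt1 and the other 5 libraries 5.87 to 7.95. The log2 ratio of Krt2 to Krt10 was −0.53 ± 0.11 in the knockout and −0.41 ± 0.054 in the control, and the groups overlapped (exact permutation p 0.2, adjusted 0.3). The difference of −0.12 was −0.069 without DE685.

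**Figure D2:**
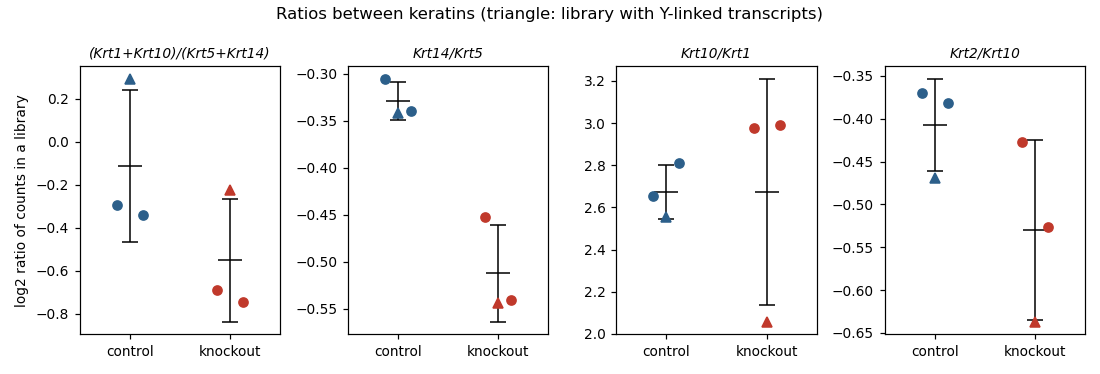
Log2 ratio of counts within a library for 4 pairs of keratins, by genotype, with mean and SD; axes differ between panels and do not start at 0, and triangles are the libraries with Y-linked transcripts. The groups separate for Krt14 over Krt5, with −0.45 as the highest knockout value and −0.34 as the lowest control value, and overlap in the other panels.

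Among the minor keratins, Krt77 rose in the knockout and Krt78 and Krt80 did not pass. Krt77 (chromosome 15, 101858731 to 101869705, minus strand), a minor type II suprabasal keratin that is also known from sweat gland ducts, had 526, 758 and 1168 counts in DE679, DE685 and DE688 and 223, 266 and 383 counts in DE680, DE684 and DE689. On the CPM scale this was 22.3, 43.8 and 45.4 against 9.89, 11.7 and 15.2. Each knockout library lay above each control library, and DE679 was the knockout library nearest to the control. The means were 37.2 ± 12.9 and 12.3 ± 2.70 CPM (SD, n = 3 each), which is 3.03-fold in the fit (95% interval 1.93 to 4.75), or 1.60 on the log2 scale (SE 0.28, edgeR adjusted p 0.0395).

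The Krt77 call was close to the threshold. It passed without DE679 (1.87, edgeR adjusted p 0.0102) and was short of it without DE685 (1.46, adjusted p 0.0963), DE688 (1.42, 0.136), DE680 (1.46, 0.116), DE684 (1.56, 0.107) or DE689 (1.79, 0.0816), each fit having fewer libraries. By sex, the log2 ratio of means was 1.43 over the 4 libraries with Xist and 1.91 between DE685 and DE684, 1 library each. The sign on both sides was fixed beforehand, because every knockout library lay above every control library. Within a library, Krt77 counts were 0.0105 to 0.0291 times those of its neighbour Krt1 in the knockout and 0.00271 to 0.00769 times in the control, without overlap (difference 1.87 on the log2 scale, exact permutation p 0.1, adjusted 0.3).

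Sequence overlap with other keratins was measured for Krt77. None of its 2882 distinct stretches of 50 bases recurred in a transcript of another gene in GENCODE M21. Its coding sequence was 61.8% to 71.6% identical in aligned bases to those of the other members.

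Of the other sweat gland duct markers listed, Krt19 was low, with 0.796 ± 0.26 against 0.709 ± 0.38 CPM (SD, n = 3 each). Aqp5, a water channel of secretory glands, had 0.669 ± 0.34 against 1.42 ± 0.19 CPM, a change of −1.05 (edgeR adjusted p 0.208). It was thus lower where Krt77 was higher, without overlap between the groups (0.404 to 1.05 against 1.24 to 1.62 CPM), as for 25.6% of all genes. Foxa1 was not among the genes analysed.

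Krt78 (chromosome 15, 101946001 to 101954287, minus strand), a minor type II keratin of suprabasal cells, had 71.8, 73.9 and 55.9 CPM in the knockout and 76.8, 104 and 69.8 CPM in the control. DE684 was again the highest library and DE688 the lowest. The change was −0.31 (SE 0.16, edgeR adjusted p 0.335), with an interval from 0.620- to 1.05-fold. It was −0.13 without DE684 and −0.20 without DE688. The log2 ratio of Krt78 to Krt10 was −7.79 ± 0.085 in the knockout and −7.80 ± 0.15 in the control (SD, n = 3 each), a difference of 0.0075 (exact permutation p 1).

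Krt80 (chromosome 15, 101347444 to 101370162, minus strand), a type II keratin known to lie near desmosomes in early differentiating cells, was the most even member. It had 463, 453 and 457 CPM in DE679, DE685 and DE688 and 416, 381 and 370.3 CPM in DE680, DE684 and DE689. The coefficient of variation was 1.16% in the knockout, and all knockout values lay above the control. The change of 0.23 (SE 0.06, 1.18-fold, interval 1.06 to 1.30) had an edgeR adjusted p of 0.115 and passed with the DESeq2 Wald test (adjusted p 0.0251), which called 6.05% of the 14273 genes it gave an adjusted p. The log2 ratio of Krt80 to Krt10 was −5.01 ± 0.25 in the knockout and −5.56 ± 0.44 in the control (SD, n = 3 each), with overlap (exact permutation p 0.2, adjusted 0.3). The difference of 0.55 was 0.30 without DE684. An annotated gene on the opposite strand, Gm35853, overlaps exons of Krt80, and likewise Gm44323 those of Krt5 and Gm11940 those of Krt10. The library kit keeps strand, but whether the counting used it is not given, so reads of these partners cannot be told apart from those of the keratins.

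**Figure D3:**
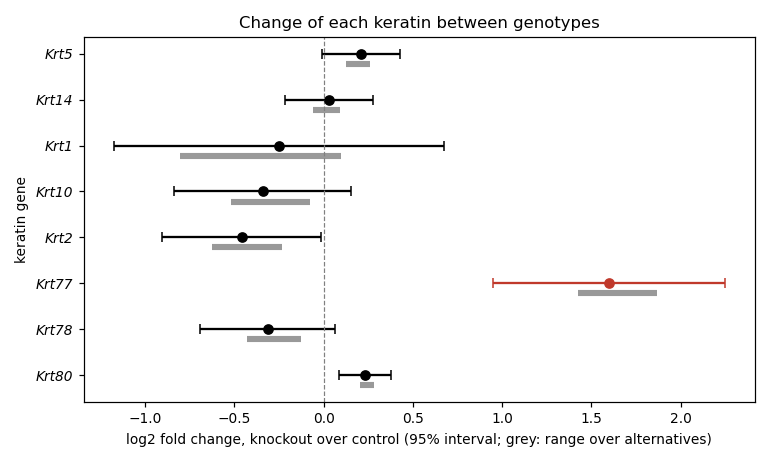
Log2 fold change of each keratin, knockout over control, from the edgeR fit (points) with its 95% interval, and in grey the range over the 15 alternative fits. Krt77 (red, 1.60) is the one member past the threshold, and Krt14 and Krt1 change sign among the alternatives.

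Per length of transcript, 4 keratins shared the top ranks. Krt10 had 7113 ± 1163 CPM per kilobase in the knockout and 9013 ± 2785 in the control, Krt5 6743 ± 412 against 5826 ± 634, Krt14 6126 ± 576 against 6004 ± 701, and Krt2 3939 ± 550.4 against 5412 ± 1472 (SD, n = 3 each). Their order was not the same in every library. Below them the order was fixed in all 6 libraries: Krt1 (1035 ± 575 against 1230 ± 482 CPM per kilobase), Krt80 (149 ± 1.73 against 127 ± 7.86), Krt78 (19.6 ± 2.86 against 24.3 ± 5.22) and Krt77 (12.7 ± 4.40 against 4.18 ± 0.920). Krt77 was thus the least abundant member in either group.

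Summed per length, type I chains (Krt10 and Krt14) slightly exceeded type II chains (the other 6) in every library. The ratio was 1.12, 1.11 and 1.11 in DE679, DE685 and DE688 and 1.17, 1.22 and 1.17 in DE680, DE684 and DE689. The groups did not overlap, and the ratio was seen before it was singled out, so it is a description. The 8 keratins together held 5.64%, 5.87% and 4.80% of all counts in the knockout libraries and 5.78%, 7.06% and 4.67% in the control libraries, a difference of −0.40 percentage points (5.44 ± 0.56 against 5.84 ± 1.20, SD, n = 3 each, exact two-sided permutation p 0.7). Leaving out DE684 turned this difference to 0.21, and it was −0.98 without DE689, −0.62 without DE685 and −0.081 without DE688. Of the counts of the 8 keratins, Krt1, Krt10 and Krt2 held 50.2%, 56.0% and 48.5% in the knockout libraries and 57.2%, 66.0% and 56.4% in the control libraries. Every knockout library was lower than every control library in this share, which was likewise seen before it was singled out.

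All members but Krt77 fell into 2 sets by which library held their extremes. Krt1, Krt10, Krt2 and Krt78 were all highest in DE684 and lowest in DE688. Krt5, Krt14 and Krt80 were all highest in DE679 and lowest in DE689. Over all 6 libraries this second set was less alike: Pearson r was 0.77 for Krt5 and Krt14, 0.84 for Krt5 and Krt80 and 0.39 for Krt14 and Krt80. Across the sets, r was 0.47 for Krt14 and Krt2, and Krt80 had an r of 0.72 with Krt77. Krt77 was highest in DE688 and lowest in DE680. The genes whose log2 CPM followed a member most closely over the 6 libraries, among 9680 genes with a mean of at least 10 CPM, were Heatr5a, Tmub2 and Rgma for Krt77 (Pearson r 0.996, 0.994 and 0.993), Dlg1, Mrpl47 and Ccdc71l for Krt10 (0.996, 0.986 and 0.985) and Ppt1, Phb and Erdr1 for Krt14 (0.992, 0.988 and 0.988). These are descriptions over 6 points: 48, 39 and 21 genes reached an r above 0.95 with Krt77, Krt10 and Krt14. Of the 9 genes, Rgma passed the test (0.48, edgeR adjusted p 0.0389).

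Krt1 was higher, and the hard keratins Krt36 and Krt84 lower, in the libraries with Y-linked transcripts than in the others. Krt36 had 3690 CPM in DE685 and 4463 CPM in DE684, against 5796 to 7686 CPM in the other 4 libraries. Krt84 had 5723 and 6643 CPM there against 8842 to 12246 CPM. DE685 and DE684 were the lowest 2 libraries for both genes, in which Krt1 was highest. With genotype kept as a term, the Y-linked libraries differed from the others by 1.07 for Krt1 (SE 0.15, edgeR adjusted p 0.0352), by −0.74 for Krt36 (SE 0.07, 0.0152) and by −0.76 for Krt84 (SE 0.08, 0.0207) on the log2 scale. This comparison was chosen after the values were seen, and 0.460% of all genes passed it. Krt10 (0.52, edgeR adjusted p 0.153), Krt2 (0.39, 0.394) and Krt78 (0.36, 0.308) did not pass, nor did Krt5, Krt14, Krt77 or Krt80. With 1 such library per genotype, sex and any other property of DE685 and DE684 cannot be told apart.

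**Figure D4:**
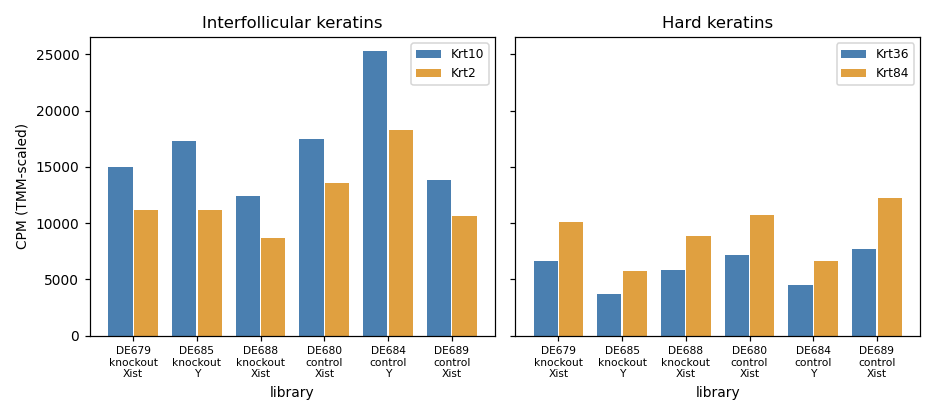
CPM (bars from 0) of Krt10 and Krt2 (left) and of the hard keratins Krt36 and Krt84 (right) in each library, marked by genotype and by Y-linked transcripts or Xist. DE685 and DE684 hold the lowest Krt36 and Krt84 levels, 3690 and 4463 CPM for Krt36.

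Genotype differences within the same sex were read beside these. In the 4 libraries with Xist, the log2 ratio of means was −0.46 for Krt1, −0.20 for Krt10, −0.29 for Krt2 and −0.20 for Krt78. Between DE685 and DE684 it was −0.049, −0.55, −0.71 and −0.49. The direction was the same on both sides for all 4, but these are not 4 separate results. The 4 genes moved together over the libraries (Pearson r 0.75 to 0.98) and all were highest in DE684. The side with Y-linked transcripts was 1 library against 1. With sex as a covariate the Krt1 change was −0.32 (SE 0.15 in place of 0.40, edgeR adjusted p 0.258), that of Krt10 −0.31 (SE 0.12, 0.195) and that of Krt2 −0.43 (SE 0.14, 0.140). None passed, and Krt77 did (1.59, 0.0332).

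The keratin genes lie in a pair of clusters, type I on chromosome 11 and type II on chromosome 15. Of the 21 tested keratin genes of the type II cluster on chromosome 15, Krt77 was the single one past the threshold, with a median change of 0.074 over the cluster, and of the 24 tested genes of the type I cluster on chromosome 11 there was none (median 0.11). The next tested keratin genes on either side were Krt1 (−0.25) and Krt79 (0.23, SE 0.10, edgeR adjusted p 0.270), a keratin of the upper follicle. The type II cluster held 3 genes, and the type I cluster 4, with an unadjusted p under 0.05.

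**Figure D5:**
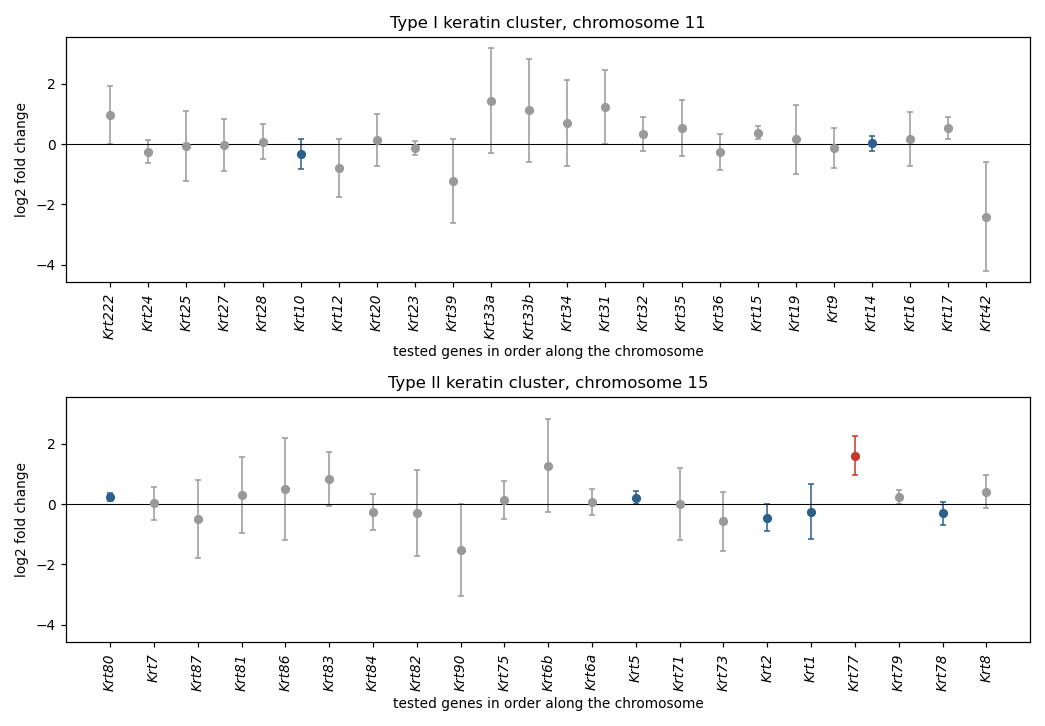
Log2 fold change, knockout over control, with 95% interval, of the tested keratin genes of the type I (top) and type II (bottom) cluster in chromosome order; blue marks interfollicular keratins and red the gene past the threshold. Krt77 at 1.60 stands beside Krt1 at −0.25 and Krt79 at 0.23.

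Other keratins of the skin were given by list. Of 13 soft keratins tested outside the group, 11 were higher and 2 lower (median 0.15), and 0 passed the edgeR adjusted threshold. An unadjusted p under 0.05 belonged to 19.0% of all genes and to 2 of the 13. Those 2, named after their values were seen, were Krt15, a basal keratin of the follicle bulge and tail epidermis, with 1689, 2018 and 1936 against 1404, 1600.2 and 1324 CPM (0.38, edgeR adjusted p 0.104), and Krt17, a keratin of follicles and stressed skin (0.52, 0.146). The summed level of the soft keratins did not overlap between groups, at 6916 to 7844 CPM in the knockout and 5239 to 6750.1 CPM in the control. The summed level of the 5 upper follicle markers was 3855 to 4726 against 2848 to 3692 CPM. Of these, 5 of 5 were higher, 1 passed the edgeR threshold and 3 had an unadjusted p under 0.05. Krt79, Krt17 and Krt75 are in both lists, so the sums are not separate results. Most of the upper follicle sum was Krt79 (2174 ± 132 against 1848 ± 247 CPM) and Krt17 (1679 ± 312 against 1172 ± 202 CPM, SD, n = 3 each). The gene that passed was Plet1, a gene of the junctional zone (0.82, edgeR adjusted p 0.00137). Of 12 tested scale and hard keratins 9 were higher (median 0.52, 0 passed, 0 with an unadjusted p under 0.05), but the abundant Krt36 and Krt84 were at −0.26 each (edgeR adjusted p 0.611 and 0.620). Of 5 root sheath keratins 2 were higher and 0 passed, with 0 at an unadjusted p under 0.05.

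None of the listed genes that anchor keratin filaments or mark the epidermal layers passed the test. Of 14 anchors and cross-linkers, which tie keratin filaments to desmosomes and hemidesmosomes or bundle them, 7 were higher and 7 lower, with 0 past the edgeR threshold and 0 at an unadjusted p under 0.05 (median −0.0041). Of 10 basal layer genes 5 were higher (median 0.0082, 0 passed, 1 at an unadjusted p under 0.05). Of 12 spinous layer genes 11 were lower (median −0.21), with 0 past the edgeR threshold and 5 at an unadjusted p under 0.05. Over all genes, 50.7% were lower and 19.0% had an unadjusted p under 0.05. The summed level of the spinous layer genes was 8336 to 8973 CPM in the knockout and 9897 to 10368 CPM in the control, without overlap. The 2 with the smallest p, named after their values were seen, were Calm4, a calcium-binding protein of differentiating keratinocytes (937 ± 64.9 against 1295 ± 132 CPM, change −0.47, edgeR adjusted p 0.0560), and Dsc1, a desmosomal cadherin of the upper epidermis (507 ± 18.4 against 678 ± 78.2 CPM, −0.42, 0.0700; SD, n = 3 each). Of 11 granular layer genes 8 were lower (median −0.24), with 0 past the edgeR threshold and 4 at an unadjusted p under 0.05. Filaggrin, Flg, which bundles keratin, was at −0.24 (edgeR adjusted p 0.620). The summed levels of the other lists overlapped between knockout and control. They were 2650 to 3123 against 2917 to 4074 CPM for the granular layer and 6895 to 7364 against 6731 to 7354 CPM for the basal layer. For the anchors and cross-linkers they were 15828 to 17476 against 17086 to 18577 CPM.

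Of 25 transcription factors of epidermal differentiation, 14 were higher and 11 lower (median 0.023), and 0 passed the edgeR threshold. An unadjusted p under 0.05 belonged to 19.0% of all genes and to 8 of the 25. Among the 8, named after their values were seen, were Trp63, the p63 regulator of the basal state (656, 651 and 639 against 568, 523 and 565 CPM, change 0.23, edgeR adjusted p 0.104), and Klf4, a factor of the barrier layers (791, 917 and 761 against 962, 1092 and 1033 CPM, −0.32, 0.119). The groups did not overlap for either gene, as for 25.6% of all genes. The others of the 8 were Vdr (0.37), Hopx (0.21), Grhl2 (0.17) and Ovol2 (0.54), all higher, and Grhl1 (−0.27) and Maf (−0.29), both lower. Grhl1 had the smallest p of the list (edgeR adjusted p 0.0925). Groups overlapped for Ovol2 and Maf but not for Vdr, Hopx, Grhl2 and Grhl1.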

How the data were processed

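The authors deposited estimated counts per gene, of which 53.0% to 57.7% per library were whole numbers exactly as written, zeros included, and a normalized signal per gene. Each signal value deposited by the authors was the count times a constant per library plus 0.001, within 0.298% of TMM-scaled CPM. Per the submitters' processing notes, bcl2fastq 2.20, cutadapt 1.18, STAR 2.7.0f and Partek were used with build mm10; the use of strand in counting and the annotation are not given in the sources used here. Columns name genotype, not sample.

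Estimated counts were rounded, filtered with filterByExpr, scaled with TMM (factors 0.975 to 1.03) and fitted with edgeR 4.0.16 (glmQLFit, glmQLFTest), with genotype as the only term, over all genes with Benjamini-Hochberg adjustment. R was 4.3.3, limma 3.58.1 and DESeq2 1.42.0. The fit was also run on counts simulated from the means and dispersions of these libraries, with no sex effect. Its outcome is not given, and no statement here rests on it. Ratios used exact permutation tests; the ratio of Krt76 to Krt10 could not be computed. Levels per length used the transcript with the longest reading frame (GENCODE M21, GRCm38). Replicate counts differed by more than sampling (chi-square over its degrees of freedom 12.2 to 39.9). Counting intervals cover no biological spread: 3 counts were 0.117 to 0.173 CPM.

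The members and gene lists were chosen with earlier results of these data known. Named were all members, the 3 genes most like Krt77, Krt10 and Krt14 over the libraries, and up to 4 genes past the threshold per list. Sex was read from Xist and Ddx3y, Eif2s3y, Kdm5d and Uty.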

Additional observations from a re-analysis of the deposited data

How the results depend on the processing

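Of 8 keratins 1 passed the edgeR test (Krt77). The count was 2 with DESeq2 (Krt77 and Krt80), 0 with limma-voom (Krt77 adjusted p 0.0768), 0 without both libraries with Y-linked transcripts (adjusted p 0.153; an alternative chosen after seeing the data) and 0 to 1 when 1 library was left out; leaving out libraries gives fewer samples, and the cause of the other moves was not tested. RLE or upper-quartile scaling, no filter, a 1 CPM minimum, limma on the authors' values plus 1 and a sex covariate kept it at 1. Krt77 was higher in all 15 alternatives, from 1.42 to 1.87. These reuse the same libraries, in which every knockout value lay above every control value, so the shared sign adds no support. Over all genes 247 passed: 864 with DESeq2 (559 higher, 305 lower; 5345 adjusted p NA), 409 with the sex covariate, 87 without the Y-linked libraries and 69 to 121 when 1 library was left out. Higher genes were 192 of 247, with 559 of 864 in DESeq2, 89 of 92 without DE679 and 65 of 69 without DE688.

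With 1 library left out, the change ran from −0.061 to 0.093 for Krt14, from −0.80 to 0.095 for Krt1, from −0.16 to 0.31 for the log2 ratio of Krt10 to Krt1, from −0.058 to 0.089 for Krt78 to Krt10 (−0.017 without the Y-linked libraries) and from −0.98 to 0.21 percentage points for the share of counts. The suprabasal to basal ratio stayed negative, from −0.60 to −0.24, as did Krt2 to Krt10, from −0.17 to −0.069, and Krt80 to Krt10 stayed positive, from 0.30 to 0.71. Krt5, Krt10, Krt2, Krt78 and Krt80 kept their sign in all 15, and for Krt5 and Krt80 the groups did not overlap to begin with. No paired analysis was possible because the columns carry no replicate numbers.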
